A study of Mus musculus with 15 samples.

Results

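The 6 genes described here are Cacna1c and Cacna1d, which encode L-type pores, Cacna1g and Cacna1h, which encode T-type pores, Cacnb2, a beta subunit, and Cacna2d1, an alpha2delta subunit. Every probe set annotated with 1 of these symbols was taken, which gave 14 of the 45032 probe sets tested and 6 of the 18190 genes with a symbol of their own. Cacna2d1 had 5 probe sets, Cacna1c, Cacna1d, Cacna1h and Cacnb2 had 2 each, and Cacna1g had 1. Of the 14, 11 had a mean at or above the 40th percentile of all probe sets (5.74 on the log2 scale used here), and 3 lay below it. No probe set was filtered out.

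Voltage-gated calcium channels let calcium into the cardiac myocyte when its membrane depolarises. A pore-forming alpha1 subunit carries the current, and beta and alpha2delta subunits govern how much of it reaches the surface and how it gates. L-type channels supply the calcium that triggers contraction, while T-type channels open at more negative voltages and are best known in the heart from pacemaker tissue and from the fetal and the stressed ventricle.

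Hearts of male B6C3F1, C3H and C57Bl/6 mice were compared, with 5 arrays per strain. C3H stands for C3H/HeJ and C57Bl/6 for C57BL/6J, both inbred, and B6C3F1 (B6C3F1/J) is their first-generation cross. At 7 weeks of age all mice underwent surgery that placed a radiotelemetry transmitter in the abdomen, under tribromoethanol anaesthesia (250 mg/kg), and they received no further treatment. A piece of the heart apex was taken at an age of 9 to 10 weeks. The RNA was from bulk tissue, in which fewer cells of a type and less RNA per cell cannot be told apart, and values are signals of mRNA and not of channel protein or current.

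Values are log2(signal + 16), where the signal is the deposited array signal on its linear scale. On this scale the change of a dim gene is understated, and levels of different probe sets cannot be set against each other. A difference passed at an adjusted p under 0.05 in a limma fit of all 15 arrays, adjusted over all 45032 probe sets by the Benjamini-Hochberg method. All 10 cardiomyocyte markers, among them Myh6, Tnnt2 and Ryr2, were above the 40th percentile. Poly-A control RNAs added during labelling averaged 8.54 ± 0.12 in B6C3F1, 9.19 ± 0.65 in C3H and 8.58 ± 0.59 in C57Bl/6 arrays (log2, SD, n = 5 each). Their medians were 8.57, 8.91 and 8.77, with C3H replicate 4 high at 10.34 and C57Bl/6 replicate 5 low at 7.58. The log2 ratio of 3 prime to 5 prime Gapdh signal, which rises as RNA degrades, was 0.90 ± 0.21 in B6C3F1, 0.60 ± 0.26 in C3H and 0.85 ± 0.24 in C57Bl/6 (SD, n = 5 each).

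Between the inbred strains, Cacna1h was lower and Cacna1c was higher in C3H than in C57Bl/6 hearts. Of the 14 probe sets, 3 passed, 2 higher and 1 lower in C3H, where 6.83% of all probe sets passed, 3.02% higher and 3.82% lower. The arrays of the 2 strains did not overlap at 2 of the 14, against 6.26% of all probe sets. A further 2 had an unadjusted p under 0.05 only. The 14 differences had a median of 0.11 on the log2 scale, beside -0.04 over all probe sets. In B6C3F1 against C57Bl/6 hearts, 0 of 14 passed in the limma fit, where 1.48% of all probe sets passed. The lowest adjusted p was 0.0655, and 3 of the 14 had an unadjusted p under 0.05. Arrays did not overlap at 1 of 14, against 3.57% of all. In B6C3F1 against C3H hearts, 1 of 14 passed, Cacna1h, which was higher, where 2.37% of all passed and 1.44% were higher. Here 6 of 14, Cacna1h among them, had an unadjusted p under 0.05. Arrays did not overlap at 2 of 14, against 3.74% of all. Each pair of these comparisons shares the arrays of 1 strain. The share of all probe sets with an unadjusted p under 0.05 was not counted in any comparison.

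**Figure D1:**
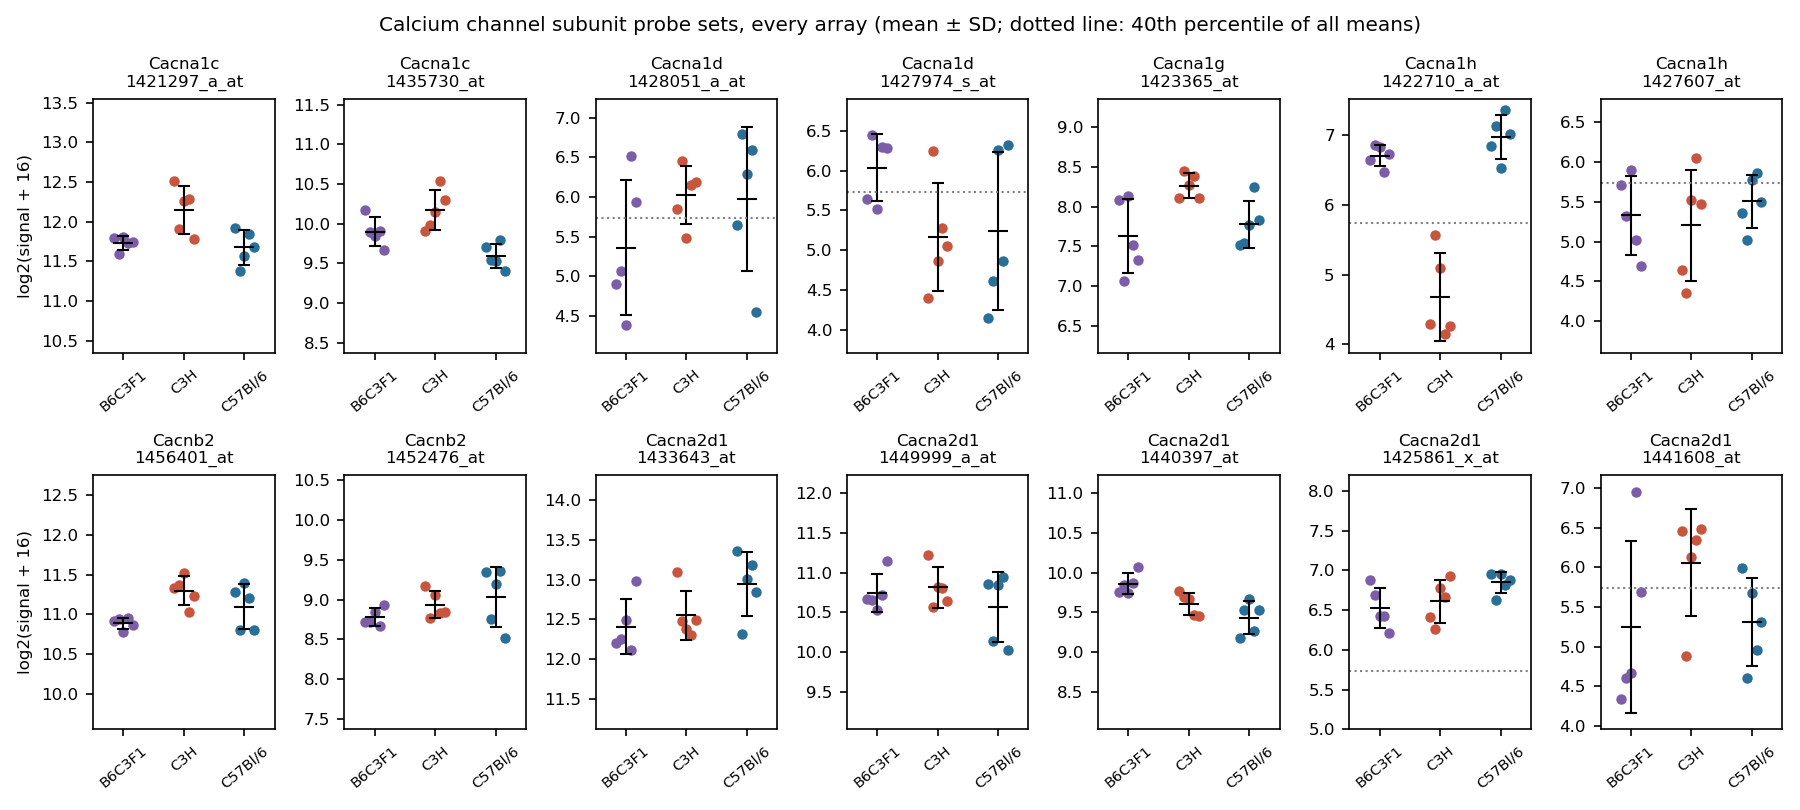
Level of each of the 14 probe sets on every array, as log2(signal + 16) on the vertical axis, by strain from B6C3F1 over C3H to C57Bl/6. Points are arrays, bars are means with SD (n = 5 each), and the dotted line is the 40th percentile of all probe-set means at 5.74. Cacna1h 1422710_a_at is the panel in which all C3H arrays lie apart from and below all others.

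Cacna1c encodes the pore of the L-type channel of the ventricle, and its transcripts are known to start at different first exons in different tissues. The 2 RefSeq starts furthest upstream are shown because Cacna1c was the 1 gene with a passing difference that had promoter entries in the sequence table (GRCm38.p6, minus strand, 250 bases before to 50 after the start). Capitals mark GC boxes (GGGCGG on either strand) and E-boxes (CANNTG), and no GC box overlapped an E-box.
Cacna1c upstream start, chr6:119196360-119196659: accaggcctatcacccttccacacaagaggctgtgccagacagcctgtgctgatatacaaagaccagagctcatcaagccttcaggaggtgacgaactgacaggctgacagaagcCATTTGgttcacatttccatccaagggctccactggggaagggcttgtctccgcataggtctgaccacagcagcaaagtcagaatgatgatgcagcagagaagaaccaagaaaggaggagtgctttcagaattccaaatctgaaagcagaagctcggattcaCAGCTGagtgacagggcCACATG
Cacna1c middle start, chr6:119108446-119108745: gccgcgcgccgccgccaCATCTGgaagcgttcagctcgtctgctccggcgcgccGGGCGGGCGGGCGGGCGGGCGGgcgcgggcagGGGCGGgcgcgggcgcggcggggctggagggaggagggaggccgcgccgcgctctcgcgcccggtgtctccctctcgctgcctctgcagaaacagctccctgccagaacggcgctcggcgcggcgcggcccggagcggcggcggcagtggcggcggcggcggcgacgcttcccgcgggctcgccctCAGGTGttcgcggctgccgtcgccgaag
The upstream window had a GC content of 51.3%, 0 GC boxes and 3 E-boxes. The middle window had a GC content of 81.3%, 6 GC boxes, some of which share bases, and 2 E-boxes. The furthest downstream window, at chr6:118757925-118758224, had a GC content of 51.3%, 0 GC boxes and 1 E-box. Of 32851 promoter windows of the same length, 35.7% held a GC box and 72.3% an E-box, so that these letters are common. The array does not tell which start a transcript used.

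Cacna1c probe set 1435730_at had values of 10.18, 9.90, 9.85, 9.90 and 9.67 in B6C3F1 hearts. It had 9.91, 9.99, 10.14, 10.54 and 10.29 in C3H hearts, and 9.70, 9.54, 9.53, 9.79 and 9.41 in C57Bl/6 hearts. Every C3H array was above every C57Bl/6 array, and the B6C3F1 arrays reached into both ranges. C3H hearts were 1.49-fold above C57Bl/6 hearts, a difference of 0.58 ± 0.12 (SE, adjusted p = 0.0037, 95% interval 0.32 to 0.84). The difference passed under 28 of 29 other settings. The exception was the poly-A covariate, with which it was 0.43 (adjusted p = 0.0518).

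The other, brighter Cacna1c probe set, 1421297_a_at, had 11.79, 11.59, 11.80, 11.74 and 11.75 in B6C3F1 hearts. The values were 12.52, 11.90, 12.26, 12.29 and 11.79 in C3H hearts and 11.92, 11.38, 11.57, 11.85 and 11.68 in C57Bl/6 hearts. The C3H and C57Bl/6 ranges overlapped, since C3H replicates 2 and 5 lay below C57Bl/6 replicate 1. The level was 1.39-fold higher in C3H hearts (0.47 ± 0.12, SE, adjusted p = 0.0196), and it passed under 21 of 29 other settings. It was lost with the poly-A covariate (0.39, adjusted p = 0.128), without an intensity trend in the variance (adjusted p = 0.117), with only the 2 strains fitted (adjusted p = 0.0517), and when C3H replicate 1, 3 or 4 or C57Bl/6 replicate 2 or 3 was left out (adjusted p between 0.0556 and 0.0592).

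B6C3F1 hearts did not pass against either parent for Cacna1c. At 1435730_at they differed by 0.31 from C57Bl/6 (adjusted p = 0.259), by -0.27 from C3H (adjusted p = 0.355) and by 0.02 from the midparent, which lies halfway between the parental log2 means. At 1421297_a_at they differed by -0.42 from C3H (adjusted p = 0.0859), and this passed without C3H replicate 5 (-0.51, adjusted p = 0.0172). The 2 Cacna1c probe sets had a Pearson r of 0.56 over the 15 arrays and of 0.09 over the deviations from the strain means.

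Cacna1d encodes an L-type pore that opens at more negative voltages than that of Cacna1c and is best known in sinus node and atrium. Both of its probe sets were dim, and 1427974_s_at lay below the 40th percentile. At 1428051_a_at the values were 4.90, 5.07, 4.39, 6.51 and 5.93 in B6C3F1 hearts, 5.85, 6.46, 5.49, 6.15 and 6.19 in C3H hearts and 5.65, 6.79, 6.30, 6.60 and 4.56 in C57Bl/6 hearts. All 3 strains overlapped. C3H differed from C57Bl/6 by 0.05 ± 0.44 (SE, adjusted p = 0.977, 95% interval -0.87 to 0.97), an interval too wide to tell the strains apart or alike. At 1427974_s_at the means were 6.04 ± 0.42 in B6C3F1, 5.17 ± 0.68 in C3H and 5.24 ± 0.99 in C57Bl/6 hearts (SD, n = 5 each). The 2 probe sets had an r of -0.19 over the 15 arrays.

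Cacna1g, a T-type pore, had 1 probe set, 1423365_at, with 8.08, 7.07, 8.14, 7.52 and 7.33 in B6C3F1 hearts. It had 8.11, 8.45, 8.27, 8.39 and 8.11 in C3H hearts and 7.52, 7.54, 7.76, 8.25 and 7.83 in C57Bl/6 hearts. The C3H arrays lay close together near the top, and the other strains each had an array within their range. C3H differed from C57Bl/6 by 0.48 ± 0.21 (SE, 95% interval 0.05 to 0.91), which did not pass (adjusted p = 0.206). B6C3F1 differed from C3H by -0.64 ± 0.21 (SE, adjusted p = 0.129). Neither passed under any of 30 other settings.

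Cacna1h, the other T-type pore, differed most. Probe set 1422710_a_at had 6.64, 6.86, 6.83, 6.48 and 6.74 in B6C3F1 hearts. It had 4.29, 5.57, 5.10, 4.15 and 4.26 in C3H hearts and 6.85, 7.14, 6.53, 7.36 and 7.02 in C57Bl/6 hearts. All 5 C3H arrays lay below every array of the other strains and below the 40th percentile, which all 10 other arrays exceeded. In signal + 16, C3H was 4.93-fold lower than C57Bl/6 (-2.30 ± 0.33, SE, adjusted p = 3.46e-05, 95% interval -2.98 to -1.63). B6C3F1 was 4.09-fold higher than C3H, again in signal + 16 (2.03 ± 0.33, SE, adjusted p = 0.000536). Both passed under all 28 other settings that kept this probe set, between -3.79 and -1.22 for C3H minus C57Bl/6 and between 1.03 and 3.48 for B6C3F1 minus C3H. The ends of those ranges are set by the constant added before the log, 1 or 64 in place of 16.

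On the linear scale, without that constant, Cacna1h 1422710_a_at signals were 84.0, 99.8, 97.4, 73.0 and 90.7 in B6C3F1 hearts. They were 3.6, 31.7, 18.3, 1.7 and 3.1 in C3H hearts and 99.2, 124.6, 76.4, 147.8 and 113.8 in C57Bl/6 hearts. The strain means were 89.0 ± 10.9, 11.7 ± 13.05 and 112 ± 26.8 in B6C3F1, C3H and C57Bl/6 hearts (SD, n = 5 each). Without the constant, the C57Bl/6 mean was 9.61 times and the B6C3F1 mean 7.61 times the C3H mean. The SD of the C3H signals exceeded their mean. Probe sets of 23 genes of other organs, which the heart should lack, had strain means with a median of 5.12 on the log2 scale and lay mostly between 4.42 and 6.10 (10th to 90th percentile, 35 probe sets), with Zp2 highest at 7.37. The C3H mean of Cacna1h, 4.68 ± 0.63 (SD, n = 5), lay within that range, while 6.71 ± 0.15 in B6C3F1 and 6.98 ± 0.31 in C57Bl/6 lay above it. Each fold against C3H is therefore measured against a level not told apart from background.

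**Figure D2:**
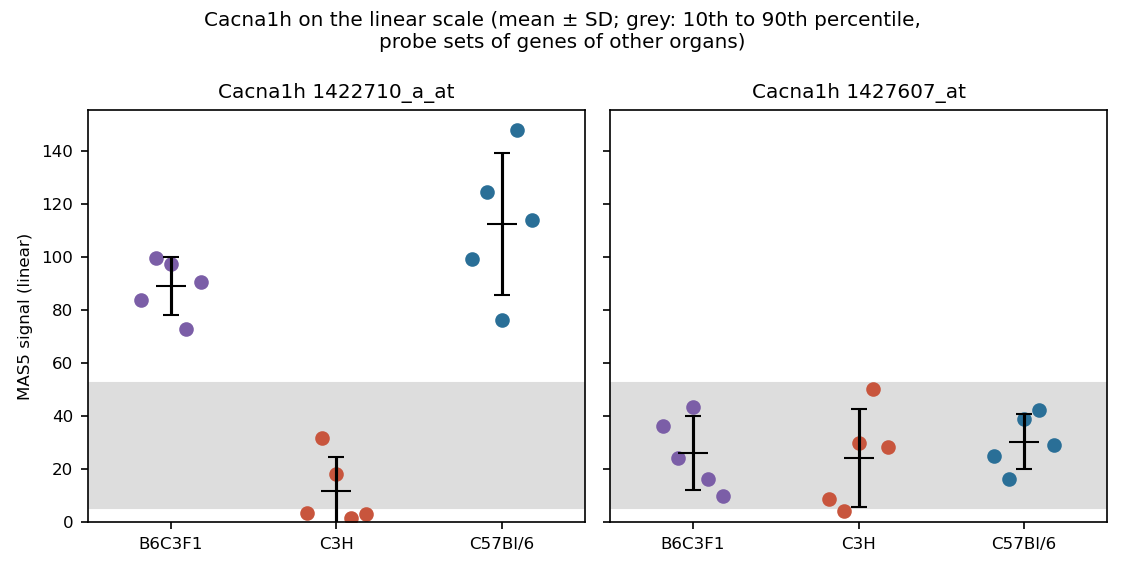
Linear signal of both Cacna1h probe sets on every array, by strain, with the mean and SD (n = 5 each). The grey band spans the 10th to 90th percentile of probe sets of genes of other organs. At 1422710_a_at the 5 C3H arrays lie at 1.7 to 31.7 and the arrays of the other strains at 73.0 or more, whereas at 1427607_at the strains overlap.

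B6C3F1 hearts stood close to C57Bl/6 for Cacna1h 1422710_a_at, with a difference of -0.27 ± 0.33 (SE, adjusted p = 0.788, 95% interval -0.95 to 0.41). All 5 B6C3F1 arrays were above the midparent, 5.83 on the log2 scale and a signal of 62.0 on the linear scale. The difference from the midparent was 0.88 ± 0.28 (SE), with an unadjusted p of 0.00502 that did not pass in the limma fit (adjusted p = 0.235). It lay between 0.42 and 1.59 under other settings, with the constants 64 and 1 at the ends, and the midparent includes the C3H level. Over the 14 probe sets, 0 passed against the midparent in the limma fit, where 0.313% of all probe sets passed. An unadjusted p under 0.05 was found at 6 of the 14, and the share of all probe sets at that level was not counted. The lowest adjusted p of the 14 was 0.185.

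The second Cacna1h probe set, 1427607_at, did not show the strain difference. Its values were 5.71, 5.33, 5.90, 5.02 and 4.69 in B6C3F1 hearts, 4.64, 4.35, 5.52, 6.05 and 5.48 in C3H hearts and 5.36, 5.02, 5.78, 5.87 and 5.49 in C57Bl/6 hearts. All 3 strains overlapped and every strain mean lay below the 40th percentile, within the range of the genes of other organs. C3H differed from C57Bl/6 by -0.30 ± 0.37 (SE, adjusted p = 0.756, 95% interval -1.06 to 0.46). At this level a fall may be hard to see, and whether dimness accounts for the disagreement of the probe sets was not tested. The 2 probe sets had an r of 0.09 over the 15 arrays, so that the strain difference in Cacna1h rests on 1 probe set. Probe sequences were not used here, and weaker binding of the C3H transcript to the probes and a lower amount of Cacna1h mRNA cannot be told apart.

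Cacnb2 encodes the main beta subunit of the cardiac L-type channel. Its brighter probe set, 1456401_at, had 10.91, 10.93, 10.78, 10.95 and 10.86 in B6C3F1 hearts. It had 11.34, 11.36, 11.52, 11.02 and 11.23 in C3H hearts and 11.29, 10.80, 11.39, 11.21 and 10.80 in C57Bl/6 hearts. All B6C3F1 arrays lay below all C3H arrays. That difference was -0.41 ± 0.12 (SE) and missed the threshold (adjusted p = 0.0743), and it passed under 5 of 30 other settings, the left-out array being C3H replicate 4 in one of them (-0.47, adjusted p = 0.0408). C3H differed from C57Bl/6 by 0.20 (adjusted p = 0.421).

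At Cacnb2 1452476_at the means were 8.78 ± 0.11 in B6C3F1, 8.94 ± 0.17 in C3H and 9.03 ± 0.38 in C57Bl/6 hearts (SD, n = 5 each). C3H differed from C57Bl/6 by -0.10 (adjusted p = 0.826), the other direction from the brighter probe set, and neither difference passed. Within strains the 2 Cacnb2 probe sets did move together, with an r of 0.71 over the deviations from the strain means.

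Cacna2d1 encodes the alpha2delta subunit paired with the cardiac L-type pore. The brightest of its 5 probe sets, 1433643_at, had 12.21, 12.26, 12.49, 12.11 and 12.98 in B6C3F1 hearts. It had 13.09, 12.48, 12.38, 12.31 and 12.49 in C3H hearts and 13.36, 12.31, 13.002, 13.19 and 12.84 in C57Bl/6 hearts. Most C57Bl/6 arrays were high and replicate 2 was low. The strains overlapped, with C3H replicate 1 and B6C3F1 replicate 5 also among the high values. C3H differed from C57Bl/6 by -0.39 ± 0.18 (SE, adjusted p = 0.25), and B6C3F1 differed from C57Bl/6 by -0.53 (adjusted p = 0.156). Without C57Bl/6 replicate 2, both passed, at -0.55 (adjusted p = 0.0465) and -0.69 (adjusted p = 0.0274). Without B6C3F1 replicate 5 the B6C3F1 difference passed too (-0.68, adjusted p = 0.0386).

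Cacna2d1 1440397_at had 9.76, 9.85, 9.75, 9.87 and 10.08 in B6C3F1 hearts, 9.77, 9.69, 9.67, 9.47 and 9.46 in C3H hearts and 9.18, 9.53, 9.67, 9.27 and 9.53 in C57Bl/6 hearts. Every B6C3F1 array was above every C57Bl/6 array while the C3H range overlapped both, with a difference of 0.43 ± 0.12 (SE, adjusted p = 0.0655) that missed the threshold and passed under 3 of 29 other settings. The remaining Cacna2d1 probe sets had adjusted p-values between 0.439 and 0.707 for C3H minus C57Bl/6. Taken in pairs, the 5 probe sets had an r between -0.65 and 0.43 over the 15 arrays. The brightest pair, 1433643_at and 1449999_a_at, moved together within strains (r 0.76), but their differences between C3H and C57Bl/6 had opposite signs, -0.39 and 0.25, and neither passed.

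**Figure D3:**
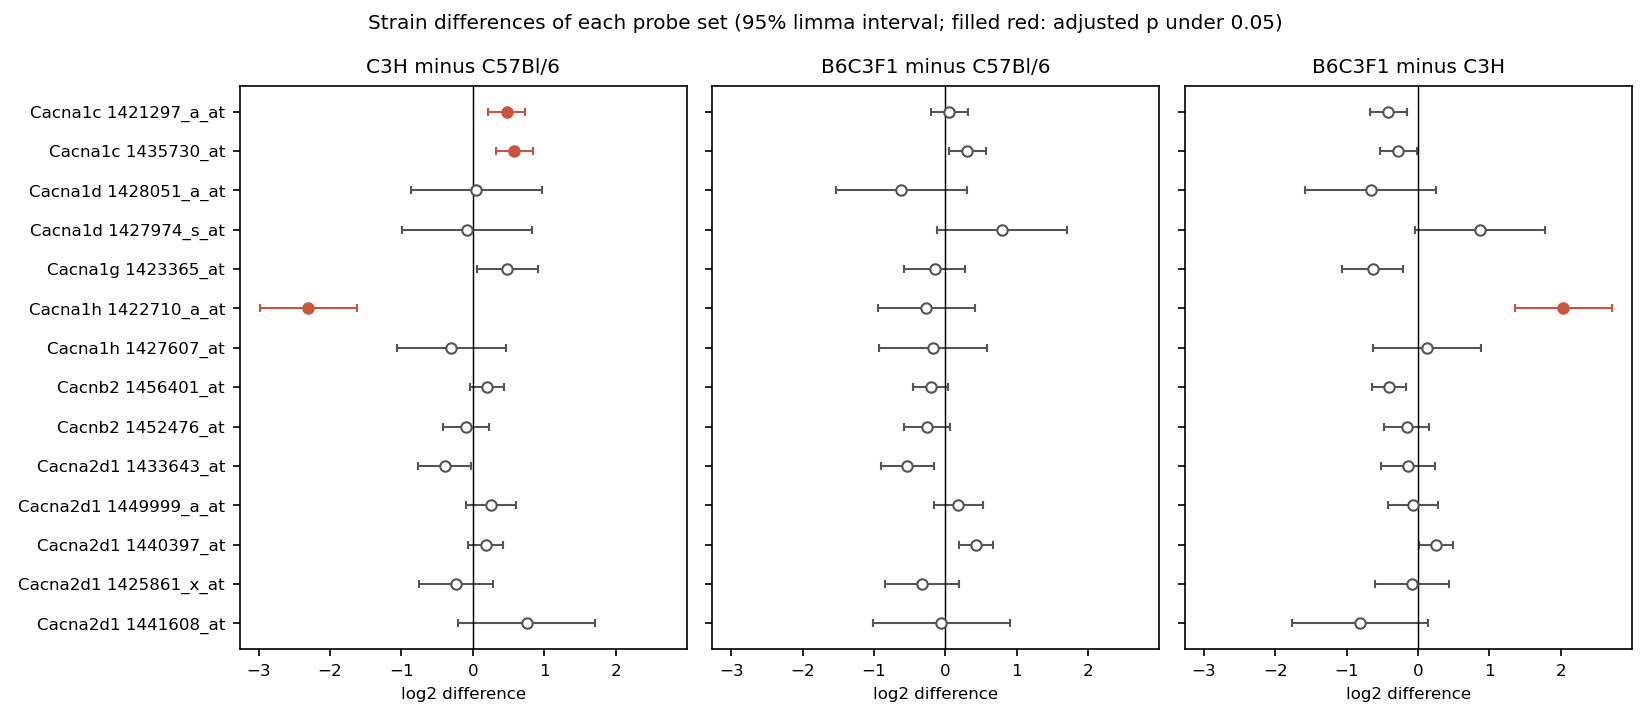
Log2 differences of the 14 probe sets in C3H minus C57Bl/6, B6C3F1 minus C57Bl/6 and B6C3F1 minus C3H, with 95% intervals from the limma fit. Filled red points passed at an adjusted p under 0.05. In C3H minus C57Bl/6 these are both Cacna1c probe sets, above 0, and Cacna1h 1422710_a_at at -2.30, and in B6C3F1 minus C3H Cacna1h alone.

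**Figure D4:**
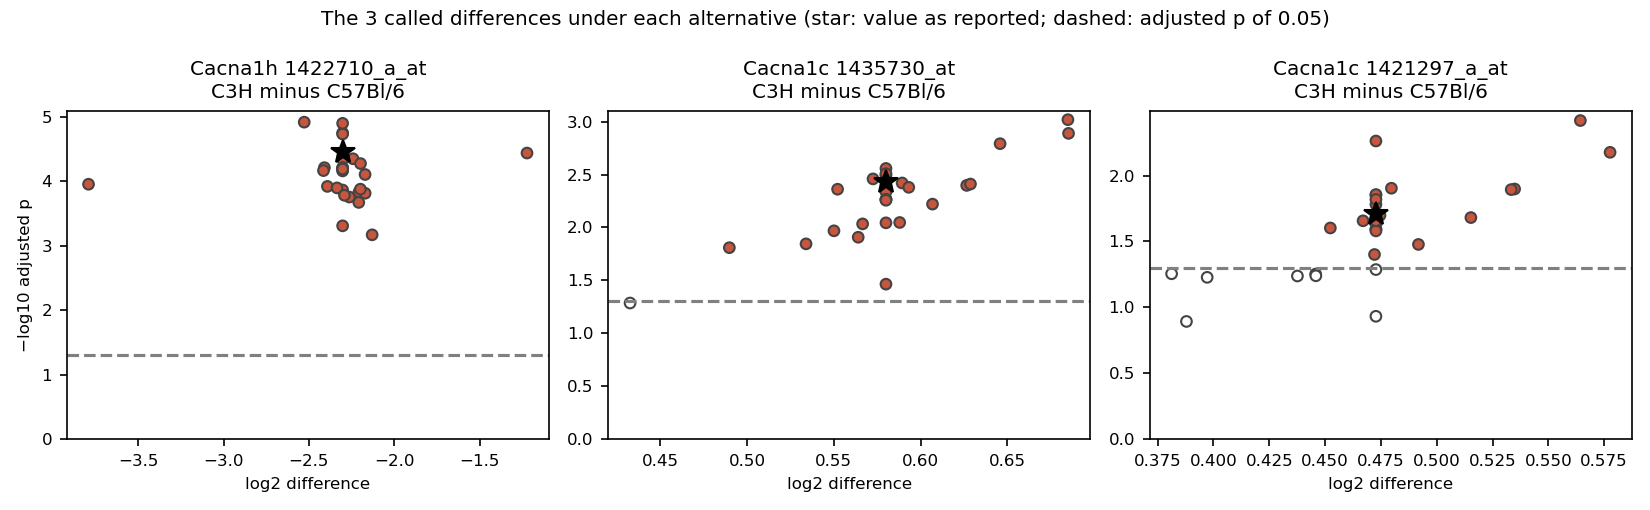
The 3 differences that passed in C3H minus C57Bl/6, recomputed under every other setting, with the log2 difference on the horizontal axis and -log10 of the adjusted p on the vertical axis. Stars are the values given in the text and the dashed line is an adjusted p of 0.05. Cacna1h stays above the line under all 28 settings, Cacna1c 1435730_at under 28 of 29 and Cacna1c 1421297_a_at under 21 of 29.

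Other genes of the channel family and of calcium handling were read at the brightest probe set of each gene, where 9.35% of all genes passed between C3H and C57Bl/6, 4.35% higher and 5.0% lower in C3H. Of 20 other voltage-gated calcium channel genes, 18 had a probe set and 12 of these were above the 40th percentile. In C3H hearts 1 of the 18 rose, Cacng6, a gamma subunit gene, and 0 fell. The median difference was 0.02. Cacng6 1451811_at had 6.85, 6.90, 7.01, 7.12 and 6.88 in B6C3F1 hearts, 8.72, 8.33, 8.85, 8.69 and 8.05 in C3H hearts and 5.30, 6.15, 6.31, 6.38 and 6.07 in C57Bl/6 hearts. The 3 strains did not overlap, with B6C3F1 between its parents. In signal + 16, C3H was 5.61-fold higher than C57Bl/6 (2.49 ± 0.24, SE, adjusted p = 9.42e-08), and this passed under all 30 other settings. The C57Bl/6 mean, 6.04 ± 0.43 (SD, n = 5), lay within the range of the genes of other organs (4.42 to 6.10). This fold too is therefore measured against a level not told apart from background.

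B6C3F1 hearts were lower than C3H hearts for Cacng6 1451811_at (-1.58, adjusted p = 0.000232), and their difference from C57Bl/6 was 0.91 (adjusted p = 0.0549). The second probe set of Cacng6, 1425730_at, showed the same order of the strains, with 5.91 ± 0.75 in B6C3F1, 7.59 ± 0.22 in C3H and 4.81 ± 0.79 in C57Bl/6 hearts (SD, n = 5 each). There too C3H was higher than C57Bl/6 (2.78, adjusted p = 3.72e-05), and the B6C3F1 and C57Bl/6 means lay within the range of the genes of other organs. Thus Cacng6 passed at both of its probe sets. Cacna1h passed at 1 of 2, and its other probe set was dim in every strain and did not show the difference.

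Of 34 regulators of the channels, 28 had a probe set and 0 passed between C3H and C57Bl/6 in the limma fit (median difference 0.07). An unadjusted p under 0.05 was found at 5 of them, and the share of all genes at that level was not counted. Of 12 genes of calcium release and removal, 11 had a probe set, and 3 rose and 1 fell in C3H hearts (median 0.18). The 3 that rose were Slc8a1, the sodium-calcium exchanger (1.21 on the log2 scale), Asph, whose products include junctin (0.63), and Itpr2, an inositol trisphosphate receptor (0.78). Casq2, the calcium buffer of the sarcoplasmic reticulum, fell by 0.48. Slc8a1 and Asph passed under all 30 other settings, Itpr2 under 28 of 29 and Casq2 under 25 of 29. In the cross, Asph passed against C57Bl/6 hearts, between 0.54 and 0.63 over 30 other settings, of which 29 passed. Itpr2 passed against C3H hearts, between -1.11 and -0.81 over 29 other settings, all of which passed. Slc8a1 also passed in B6C3F1 against C57Bl/6 hearts (0.70, adjusted p = 0.00172) and against C3H hearts (-0.51, adjusted p = 0.0162). Its probe sets disagreed, since 1 of 4 passed higher and 1 lower in C3H. Of the 6 Asph probe sets 1 passed, and the others lay between -0.12 and 0.90, while 2 of 6 passed for Itpr2, both higher.

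**Figure D5:**
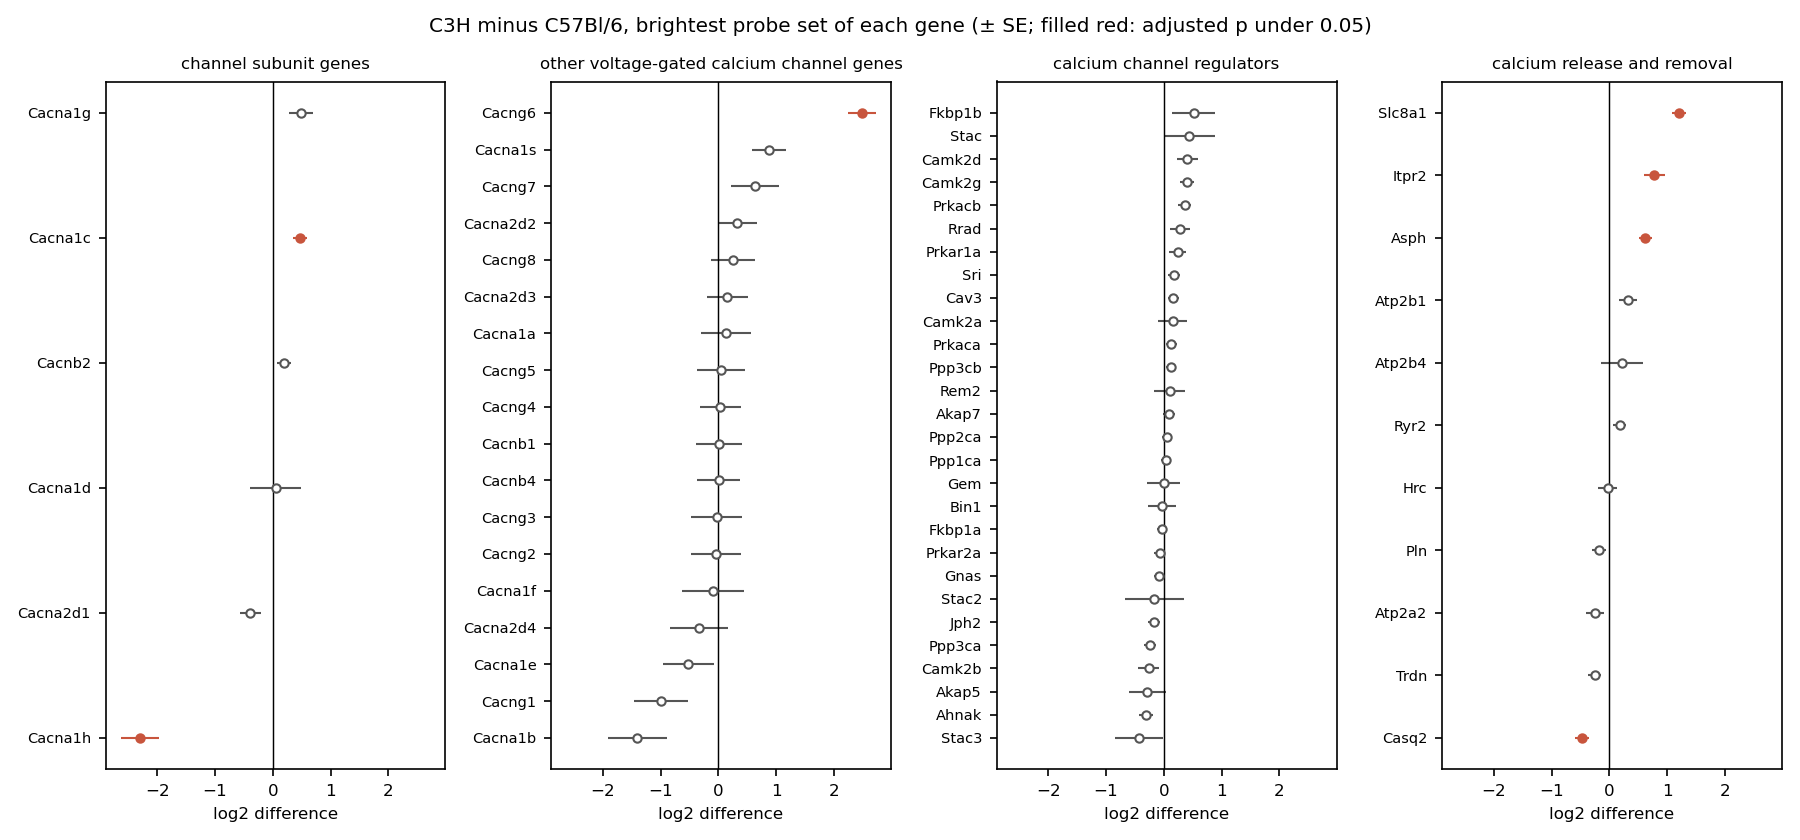
Log2 difference C3H minus C57Bl/6 with its SE for the brightest probe set of each gene, in the 6 channel subunit genes, the 18 other channel genes, the 28 regulators and the 11 genes of calcium release and removal. Filled red points passed at an adjusted p under 0.05. Cacng6 at 2.49 and Cacna1h at -2.30 lie furthest from 0.

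Markers of other cells were set beside these differences. Of 10 cardiomyocyte markers, 0 passed between C3H and C57Bl/6 in the limma fit and 0 had an unadjusted p under 0.05. Their summed signal ranged over 409115 to 594040 in B6C3F1, 409365 to 536560 in C3H and 460832 to 610766 in C57Bl/6 hearts. Of 9 conduction system markers, 2 rose in C3H hearts, Tbx18 and Id2, and 0 fell, with sums of 3518 to 4669 in B6C3F1, 3799 to 4771 in C3H and 3316 to 4380 in C57Bl/6. Shox2, Isl1 and Gja5 were below the 40th percentile. Of 11 atrial markers, 1 rose, Myl4, and 2 fell, Kcna5 and Kcnj3. Of 10 fibroblast markers 3 rose, of 10 endothelial markers 3 fell, of 10 smooth muscle markers 1 rose and 1 fell, of 10 skeletal muscle markers 1 fell, and of 8 nerve and Schwann cell markers 0 passed in the limma fit, with 2 at an unadjusted p under 0.05. Over all genes 4.35% were higher and 5.0% lower. In B6C3F1 against C57Bl/6 hearts 1 smooth muscle marker and 2 fibroblast markers, Lum and Tcf21, were higher, where 1.11% of all genes were. The fibroblast list summed to 52261 to 59608 in B6C3F1, 42666 to 64573 in C3H and 35550 to 51522 in C57Bl/6 hearts. Its B6C3F1 and C57Bl/6 sums did not overlap. Against C3H hearts, 3 of 9 conduction system markers were lower in B6C3F1, and 1 atrial marker was higher and 1 lower. In that comparison 1 endothelial and 1 smooth muscle marker were higher, where 2.37% of all probe sets passed in either direction. For C3H minus C57Bl/6 in the limma fit, 7 of 10 endothelial markers had an unadjusted p under 0.05, with a median difference of -0.43. So did 6 of 11 atrial, 4 of 10 smooth muscle, 3 of 10 fibroblast, 3 of 9 conduction system and 1 of 10 skeletal muscle markers. The share of all genes with an unadjusted p under 0.05 was not counted, so that these counts cannot be set against it. The summed signals of C3H and C57Bl/6 overlapped for each marker list, but a sum follows the brightest genes of its list and can hide a shift of the others. The part of these cells in the channel differences was not tested.

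The genes whose pattern over the 15 arrays was most like that of each channel gene were taken from 23037 probe sets above the 40th percentile. The points share their strains, so that the r over deviations from the strain means is given beside each. Both come from the same 15 arrays and belong to the best of 23037 probe sets, so that they are high by selection. How high an r unrelated probe sets would reach was not tested. For Cacna1h 1422710_a_at they were Snx6 (r 0.97, within strains 0.77), Ptprg (0.96, 0.69) and Ang (0.96, 0.63). For Cacna1c 1435730_at they were Glg1 (0.92, 0.83), Pofut2 (0.91, 0.76) and Ninj1 (0.90, 0.75). For Cacna2d1 1433643_at, Asb8 came first (0.97, 0.96) and Gpr146 next (0.95, 0.95). For Cacna1g it was Tcf25 first (0.93, 0.88), for Cacnb2 Zfp346 (0.83, 0.70) and for Cacna1d, at the dim 1427974_s_at below the 40th percentile, Fkbp7 (0.90, 0.89).

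The neighbours of each gene on its chromosome were read as well, a choice made after its values were seen. The 5 nearest measured genes on each side gave 60 neighbours, of which 1 was higher and 2 were lower in C3H than in C57Bl/6 hearts, where 9.35% of all genes passed. These 3 were Rsad1 near Cacna1g (0.44, adjusted p = 0.0127), Lrtm1 near Cacna1d (-0.73, adjusted p = 0.00355) and Stamos near Cacnb2 (-1.34, adjusted p = 0.0479). Of the 10 neighbours of Cacna1h and the 10 of Cacna1c, 0 passed in the limma fit. The Cacna1h neighbours were dim, with means from 4.73 to 6.48, mostly within the range of the genes of other organs. At that level a strain difference is hard to see, so that their count does not describe the region.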

How the data were processed

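Heart apex RNA of 15 mice was measured on whole-genome Affymetrix mouse arrays. The deposited values are log2 signals made with MAS5, per the submitters' processing notes, with no version in the sources used here. The log2 scale was read from the values, whose 2% trimmed mean signal was 500.05 on each array. Present or absent calls were not used here. For testing, log2(signal + 16) was formed from the linear signals. The 64 control probe sets were left out, and the 45032 others (34940 with 1 gene symbol, 932 with several, 9160 with none given) entered a limma 3.58.1 fit under R 4.3.3 (lmFit, eBayes with an intensity trend, strain as the factor, all 15 arrays). Adjusted p-values are by Benjamini-Hochberg. The 3 strains were compared in pairs, and B6C3F1 was also set against the midparent. The fit was also run on simulated normal values with known changes added. Those values do not copy signals near background, so that run does not bear on the calls of dim probe sets.

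The genes and lists were chosen with earlier results of these data known. The rule gave values per array for each channel probe set that passed and for the brightest of each gene, up to 6 passing genes of each related list by smallest adjusted p, and 3 probe sets of highest r per gene. Values per array are also given for Cacna1h 1427607_at, Cacna2d1 1440397_at and Cacng6, chosen after their values were seen. Promoter sequences are from RefSeq (GRCm38.p6), where 4 of 6 genes matched with 8 windows, and neighbours follow the gene order of the same build. The labels give a mouse per array and no batch. Depth does not exist for arrays, and their number limits the precision. The replicate numbers did not pair the arrays: 15 same-number pairs had correlations of -0.06 to 0.11 between their deviations, and 1 was over 0.1. Alternatives covered the constant (1 and 64), dim filters, normalization, probe set choice, the variance model, array weights, the strains fitted, the replicate block, both quality covariates and each array left out.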

Additional observations from a re-analysis of the deposited data

Results flagged for a closer look

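Within strains, 2 of 42 sets of 5 arrays held a value further from its nearest neighbour than Dixon's 95% limit allows, and chance gives about 1 in 20. At Cacna2d1 1433643_at, C3H replicate 1 was highest at 13.09, with the next array at 12.49. At Cacna2d1 1441608_at, a dim probe set, C3H replicate 2 was lowest at 4.88, with the next at 6.13.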

How the results depend on the processing

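Of 1574 recomputed differences of single channel probe sets, 1552 kept their side of the threshold, 9 lost it, 13 gained it and 0 of those that passed reversed. For C3H minus C57Bl/6, 1 channel probe set passed instead of 3 with the poly-A covariate, and 1 without probe sets ending in _x_at, _s_at or _a_at, which leaves Cacna1h 1422710_a_at and Cacna1c 1421297_a_at untested. Leaving out 1 array gave 2 to 3, and 2483 to 3356 of all probe sets. For B6C3F1 minus C57Bl/6, 1 channel probe set, Cacna2d1 1440397_at, passed with the 60th percentile filter, quantile normalization or the Gapdh covariate. Without an intensity trend 231 of all probe sets passed instead of 668, and leaving out 1 array gave 401 (without C57Bl/6 replicate 1) to 1124 (without C57Bl/6 replicate 2), with 0 to 1 channel probe sets. For B6C3F1 minus C3H, 2 channel probe sets passed with 1 probe set per gene, only the 2 strains, array weights or the replicate block, and 0 without the _x_at, _s_at and _a_at sets. There, 544 of all probe sets passed instead of 1069 without a trend and 604 with the poly-A covariate, and leaving out 1 array gave 1 to 2 channel probe sets. For B6C3F1 minus the midparent, 141 of all probe sets passed, 83 with 1 probe set per gene, 52 without a trend, 93 with the poly-A covariate and 84 to 289 with 1 array left out (289 without C3H replicate 5). With the replicate block, Cacna1c 1421297_a_at passed in B6C3F1 minus C3H (-0.42, adjusted p = 0.0297), and no other channel call changed. When every array was centred on its own median, the median of C3H minus C57Bl/6 moved by 0.10 and its split to 1788 higher and 1062 lower, against 1358 and 1718. The split was 295 higher and 160 lower against 359 and 309 for B6C3F1 minus C57Bl/6, and 398 and 507 against 647 and 422 for B6C3F1 minus C3H. The same number of channel probe sets passed after centring, with Cacna1h 1422710_a_at at -2.20 and Cacna1c 1435730_at at 0.68. Where a call changed, the cause was not tested. Dim probe sets limit Cacna1d and Cacna1h 1427607_at.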
